A study of Mus musculus with 2 samples.

Results

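The Mir200 family, Mir203 and Mir205 are miRNA genes best known from epithelia, and they were followed here in 2 small RNA libraries from newborn mouse skeletal muscle. The 7 genes are Mir200b, Mir200a and Mir429 on chromosome 4, Mir200c and Mir141 on chromosome 6, Mir203 on chromosome 12 and Mir205 on chromosome 1. They were found by gene identifier among 1973 listed miRNA genes, through GENCODE M21 for build mm10, and all 7 had counts in both libraries. Both libraries came from B6NCrl mice at postnatal day 0. One was made from pup 1 (replicate 1) and the other from pup 2 (replicate 2) of a single litter, and the sex of the pups was not collected. The labels place both pups in 1 group, so no conditions could be compared, and a difference between the libraries is a difference between 2 pups, their dissections and their library preparations at once.

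A miRNA is cut from a hairpin in a longer transcript and guides the silencing of mRNAs that match its seed, the stretch of bases from position 2 to 8. The Mir200 family maintains epithelial identity by repressing the transcription factors Zeb1 and Zeb2, which in turn repress both Mir200 clusters. Mir203 limits the proliferative potential of epidermal progenitor cells by repressing p63, and Mir205 is abundant in basal cells of stratified epithelia such as skin. The cells that the reads of the 7 genes came from were not measured here.

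The mature sequences are shown first because the family divides by its seed and not by its chromosomal position. Sequences are from RefSeq (GRCm38.p6, 7 of 7 genes matched), written 5′ to 3′ with the seed in capitals, and the arm shown is the one usually taken as the guide.
miR-200b-3p: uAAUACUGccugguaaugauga
miR-200c-3p: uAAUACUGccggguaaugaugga
miR-429-3p: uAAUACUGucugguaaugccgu
miR-200a-3p: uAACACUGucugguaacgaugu
miR-141-3p: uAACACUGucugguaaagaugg
miR-203-3p: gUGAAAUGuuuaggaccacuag
miR-205-5p: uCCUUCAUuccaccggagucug

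The seed AAUACUG was shared by Mir200b, Mir200c and Mir429, and the seed AACACUG by Mir200a and Mir141. Among the 1679 mature miRNAs of the table, no other carried either seed. The seeds of miR-203-3p and miR-205-5p were each found in no other mature miRNA. Positions counted from 1 at the 5′ end, miR-200b-3p and miR-200c-3p differed only by U11G and A22G over the 22 bases compared. They lie on different chromosomes. In the same way miR-200a-3p and miR-141-3p differed only by C17A and U22G. Between miR-200b-3p and its chromosomal neighbour miR-200a-3p the substitutions were U4C, inside the seed, and C9U, U17C and A22U. The longest identical stretch that any of the 14 mature arms of the 7 genes shared with another of the 1005 hairpins was 16 bases, between miR-200a-3p and Mir141 (and likewise between miR-141-3p and Mir200a). Full-length reads of each gene therefore had no identical second place among the hairpins of the table. Counts are per gene, so the 2 arms of a hairpin could not be told apart.

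On chromosome 4 (mm10, minus strand) the hairpins lie in the order of transcription Mir200b (156055681 to 156055750), Mir200a (156054896 to 156054985) and Mir429 (156053905 to 156053987), with 695 and 908 bases between them. All 3 lie in an intron of the protein-coding gene Ttll10 on the same strand. They also lie in the non-coding gene Gm13648, in whose exon Mir429 is placed and in whose intron Mir200b and Mir200a are placed. On chromosome 6 (minus strand) Mir200c (124718322 to 124718390) and Mir141 (124717914 to 124717985) are 336 bases apart in an intron of the non-coding gene Gm15884. Mir203 (chromosome 12, 112130880 to 112130955, plus strand) has no host gene and starts 3320 bases after the end of Aspg. Mir205 (chromosome 1, 193507463 to 193507530, minus strand) lies in an exon of the long non-coding gene 4631405K08Rik, which RefSeq names Mir205hg.

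Libraries held 3754895 (replicate 1) and 5133949 (replicate 2) own-strand reads in miRNA genes, 52.6% and 51.6% of all reads. CPM values are counts scaled to these totals. A miRNA read spans the short mature molecule, so counts were not divided by hairpin length. Reads that mapped to more than 1 place, 30.2% and 29.9% of all reads, were counted in no gene. Levels and ranks therefore cover only reads with a single place. By these counts Mir206, the miRNA gene that marks skeletal muscle, was the highest in both libraries, 79447 and 87198 CPM. Against that level the 7 epithelial genes together held 21356 counts in replicate 1, 0.569% of miRNA gene counts (95% Clopper-Pearson interval 0.561 to 0.576), and 1179 counts in replicate 2, 0.0230% (0.0217 to 0.0243). All intervals cover counting error only. In bulk tissue, fewer cells of a type and less of an RNA per cell cannot be told apart.

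Mir203 was the most abundant of the 7 in both libraries. It had 16356 counts (4356 CPM) in replicate 1 and 938 counts (183 CPM) in replicate 2, ranks 44 and 150 among the listed genes. Mir203 alone made up 76.6% of the counts of the 7 genes in replicate 1 and 79.6% in replicate 2. Mir205 was second, with 3167 counts (843 CPM) in replicate 1 and 92 counts (17.9 CPM) in replicate 2, ranks 100 and 233. It supplied 14.8% (95% interval 14.4 to 15.3) of the 7 genes' counts in replicate 1, against 7.80% (6.34 to 9.48) in replicate 2. The 5 genes of the Mir200 family supplied the rest, 8.58% (8.21 to 8.97) in replicate 1 and 12.6% (10.8 to 14.7) in replicate 2.

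Within the Mir200 family the levels spread widely. Mir429 had 710 counts (189 CPM) in replicate 1 and 50 counts (9.74 CPM) in replicate 2. Mir200c, on the other chromosome, had 685 counts (182 CPM) and 65 counts (12.7 CPM). These 2 genes changed places between the libraries, and within neither library did they differ beyond counting error: Mir429 over Mir200c was 1.04 (0.932 to 1.15) in replicate 1, and Mir200c over Mir429 was 1.30 (0.885 to 1.92) in replicate 2.

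Mir200b followed with 280 counts (74.6 CPM) in replicate 1 and 23 counts (4.48 CPM) in replicate 2. Mir141 had 117 counts (31.2 CPM) and 9 counts (1.75 CPM). Mir200a was the lowest, with 41 counts (10.9 CPM) in replicate 1 and 2 counts (0.390 CPM) in replicate 2. In replicate 2 the count of Mir200a lay below the 3 counts that a count of 0 would allow, which is 0.584 CPM there, and its order against Mir141 was not resolved at this depth (Mir141 over Mir200a 4.50, 0.931 to 42.8). All other steps of the order exceeded counting error within their library, the smallest being Mir205 over Mir200c in replicate 2 at 1.42 (1.02 to 1.98).

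**Figure D1:**
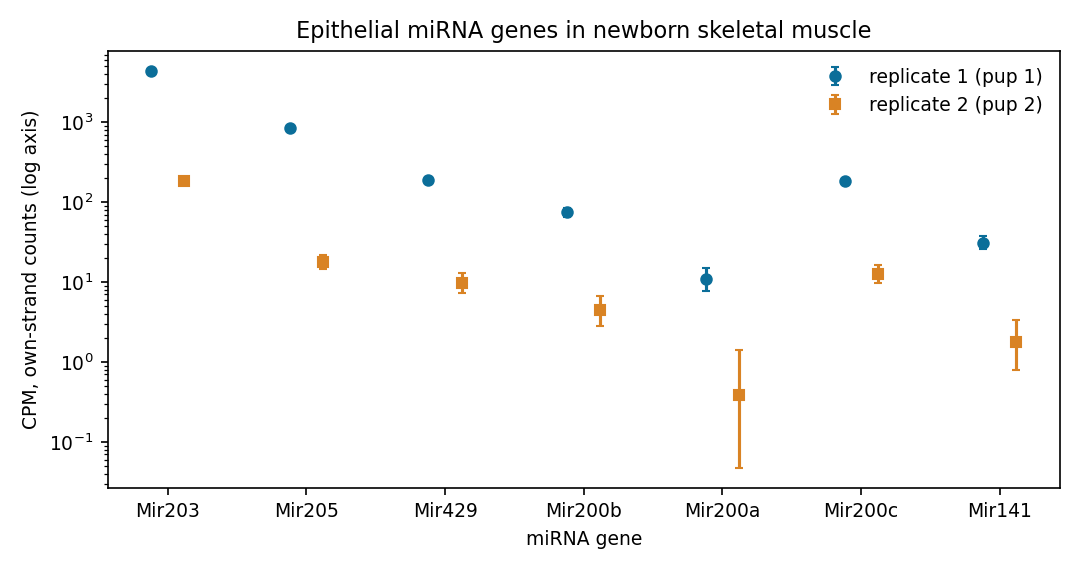
Level of each of the 7 genes in CPM of own-strand counts (log axis), with circles for replicate 1 (pup 1) on the left and squares for replicate 2 (pup 2) on the right; bars are exact Poisson 95% intervals of the count. Every gene is higher in replicate 1, from Mir203 at 4356 and 183 CPM down to Mir200a at 10.9 and 0.390 CPM, and no pair of intervals overlaps.

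All 7 genes were higher in replicate 1 than in replicate 2, and their point ratios exceeded those of all other tested miRNA genes. After scaling by edgeR's trimmed mean of M values (TMM) and adding 0.5 to each count, Mir205 was 42.7-fold higher in replicate 1 (95% interval 34.9 to 53.5). Mir203 was 21.8-fold higher (20.4 to 23.3) and Mir200a 20.7-fold higher (6.65 to 218), with only 2 counts of Mir200a in replicate 2. Mir429 was 17.6-fold higher (13.3 to 24.1), Mir141 15.4-fold (8.26 to 36.4), Mir200b 14.9-fold (9.92 to 24.4) and Mir200c 13.1-fold (10.2 to 17.2). On the log2 scale the ratios of replicate 1 over replicate 2 ran from 3.71 to 5.42, with a median of 4.13, beside a median of -0.0059 over all 373 genes with at least 10 counts in total. With 1 library per pup this comparison has no replicate check and no p-value.

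A difference of 2-fold or more was found for 24 of the 373 genes (6.43%) in favour of replicate 1 and for 7 (1.88%) in favour of replicate 2. All 7 epithelial genes were among the 24. They were also 7 of the 10 genes (2.68%) past 4-fold in favour of replicate 1, and all 7 of the genes (1.88%) past 8-fold. No gene was 4-fold higher in replicate 2. The other 3 genes past 4-fold, named after their values were seen, were Mir140 with 24555 and 4959 counts, Mir294 with 9 and 1, and Mir293 with 10 and 2. Mir200a and Mir141 reached the minimum of 10 counts through replicate 1. The lowest of the 7 ratios, 3.71 for Mir200c, lay above the highest of any other tested gene, 2.98 for Mir294. With so few counts, the log2 intervals of Mir294 (0.64 to 8.94) and Mir293 (0.41 to 5.87) span that of Mir200c (3.35 to 4.11). The order against these 2 genes was thus not resolved.

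**Figure D2:**
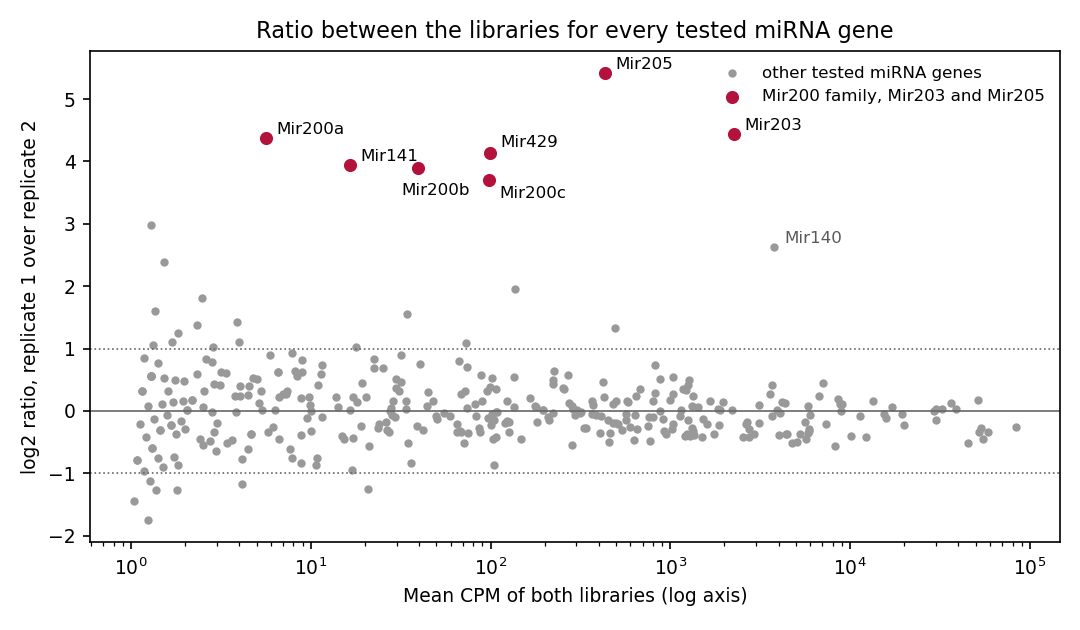
log2 ratio of replicate 1 over replicate 2 against mean CPM (log axis) for the 373 genes with at least 10 counts in total; the 7 epithelial genes are dark red and the others grey, and dotted lines mark 2-fold. The 7 lie between 3.71 and 5.42 at mean levels from 5.65 to 2269 CPM, above every grey point.

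The difference between the libraries was of similar size at both Mir200 loci. The chromosome 4 cluster summed to 1031 counts (275 CPM) in replicate 1 and 75 counts (14.6 CPM) in replicate 2, a 17.1-fold difference (13.6 to 21.99). The chromosome 6 cluster summed to 802 counts (214 CPM) in replicate 1 and 74 counts (14.4 CPM) in replicate 2, a 13.4-fold difference (10.7 to 17.4). Chromosome 4 over chromosome 6 was 1.29 in replicate 1 and 1.01 in replicate 2. The ratio of these ratios was 1.27 (0.895 to 1.80), which did not pass Fisher's exact test on the reads (two-sided, adjusted p = 0.511 over the 6 pairs compared).

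Inside each cluster the proportions of the genes were also close in the 2 libraries. On chromosome 4, Mir429 held 68.9% (95% interval 65.9 to 71.7) of the cluster in replicate 1, and 66.7% (54.8 to 77.1) of it in replicate 2. Mir200b held 27.2% (24.5 to 30.0) and 30.7% (20.5 to 42.4), and Mir200a, the middle hairpin, held 3.98% (2.87 to 5.36) and 2.67% (0.325 to 9.30). The last hairpin of the transcript was thus counted most often and the middle one least often in both libraries.

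Mir429 over Mir200b was 2.54 (2.21 to 2.92) in replicate 1, against 2.17 (1.30 to 3.73) in replicate 2. Mir200a over Mir200b was 0.146 (0.103 to 0.204) in replicate 1, against 0.0870 (0.00994 to 0.352) in replicate 2. Mir429 over Mir200a was 17.3 (12.6 to 24.3) in replicate 1, against 25 (6.57 to 212) in replicate 2. Fisher's exact test on the reads found no difference between the libraries past the threshold for these pairs (adjusted p = 0.904, 0.904 and 1), but the data leave room for one: the ratio of ratios was 1.17 (0.666 to 1.99) for Mir429 over Mir200b, 1.68 (0.391 to 15.3) for Mir200a over Mir200b and 0.693 (0.0789 to 2.81) for Mir429 over Mir200a.

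On chromosome 6, Mir200c held 85.4% (82.8 to 87.8) of the cluster in replicate 1, and 87.8% (78.2 to 94.3) of it in replicate 2, and Mir141 held 14.6% (12.2 to 17.2) and 12.2% (5.71 to 21.8). Mir141 over Mir200c stood at 0.171 (0.139 to 0.208) in replicate 1, against 0.138 (0.0606 to 0.279) in replicate 2. The ratio of ratios was 1.23 (0.590 to 2.90), which again did not pass Fisher's exact test (adjusted p = 0.904).

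**Figure D3:**
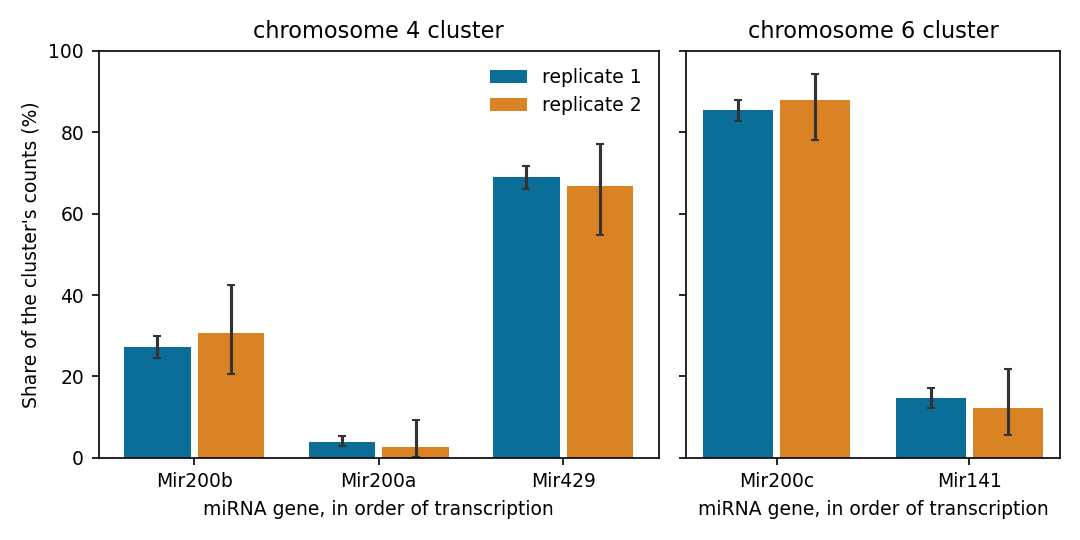
Share of each Mir200 cluster's counts held by each of its genes, in percent, with genes in the order of transcription and replicate 1 left of replicate 2; bars are exact 95% binomial intervals. Mir429 holds 68.9% and 66.7% on chromosome 4 and Mir200c holds 85.4% and 87.8% on chromosome 6, with overlapping intervals for every gene.

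At each locus the gene with the AACACUG seed was counted less often than its neighbours with the AAUACUG seed. The 3 AAUACUG genes together held 91.4% (90.0 to 92.6) of the Mir200 family in replicate 1, and 92.6% (87.2 to 96.3) of it in replicate 2. The 2 AACACUG genes, Mir200a and Mir141, held 8.62% (7.37 to 9.999) and 7.38% (3.74 to 12.8). Their 3p arms share a stretch of 16 bases, and reads that mapped to more than 1 place were counted in no gene. Whether shorter reads of these 2 genes were lost in this way was not tested. By seed, the difference between the libraries was 15.1-fold (12.7 to 18.2) for AAUACUG and 17.2-fold (9.75 to 36.6) for AACACUG, with overlapping intervals.

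Mir205 and Mir203 did not keep their proportion. Mir205 over Mir203 stood at 0.194 (0.186 to 0.201) in replicate 1, against 0.0981 (0.0783 to 0.122) in replicate 2. The ratio of ratios was 1.97 (1.59 to 2.48), and it passed Fisher's exact test on the reads (two-sided, adjusted p = 1.85e-10 over the 6 pairs). This test compares the reads of 2 libraries beyond counting error and not 2 conditions. Of the 6 pairs it was the only one past the threshold, and the one with the most reads, its lowest count being 92. The interval of Mir203's difference (20.4 to 23.3) also lay above that of the whole Mir200 family (15.3-fold, 13.0 to 18.3), a comparison that was not among the 6 tests.

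The Mir200 pairs were set beside all pairs of listed miRNA genes on 1 strand within 10 kb of each other, taking genes with a total of 50 or more counts. Of 312 such pairs 2 were of the Mir200 family, Mir429 with Mir200b and Mir141 with Mir200c, since Mir200a had too few counts. Within these 2 pairs, Mir200b (280 and 23 counts) and Mir141 (117 and 9) reached the minimum only through replicate 1. The within-pair ratio changed between the libraries by 0.24 on the log2 scale for both pairs. Over the other 310 pairs the median change was 0.15, with quartiles of 0.064 and 0.31. Many pairs share genes, so they are not independent and no test was made. The Mir200 pairs thus lay inside the middle range for their change in proportion, while their mean log2 ratios between the libraries, 4.02 and 3.83, lay above all others. That place is no independent result, since a gene of each pair passed the minimum through the library where it was high.

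**Figure D4:**
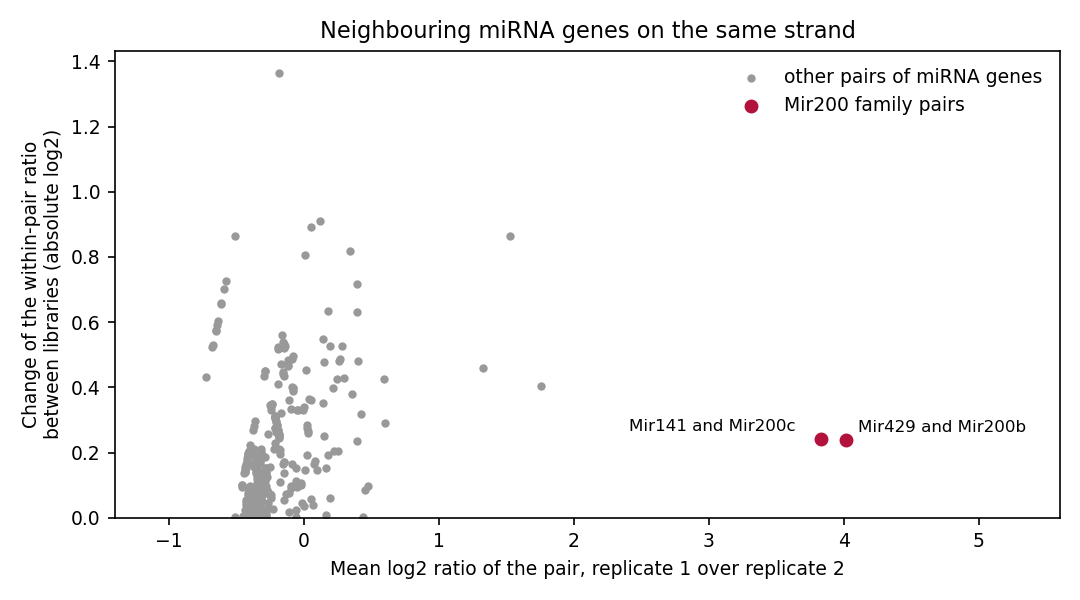
Absolute change of the within-pair log2 ratio between the libraries against the pair's mean log2 ratio of replicate 1 over replicate 2, for 312 pairs of same-strand miRNA genes within 10 kb. The 2 Mir200 pairs (dark red) lie far to the right at 4.02 and 3.83, with a change of 0.24 each.

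Other genes linked to epithelia and sensory organs differed between the libraries by less. In a list of 15 such genes, 12 were tested. Of these, 5 were higher by 2-fold or more in replicate 1 and 0 in replicate 2, beside 6.43% and 1.88% of all tested genes. Among the tested genes outside the 7, 17 of 366 were 2-fold higher in replicate 1, these 5 included. The list was chosen with earlier results of these data known, so its count is a description only. The median log2 ratio of the 12 tested genes was 0.71, with a range from -0.032 to 1.96. The list's summed level was 1450 CPM in replicate 1 and 630 CPM in replicate 2, and Mir449b and Mir449c were at 0 in both. Its most abundant member, Mir708, had 2714 counts (723 CPM) in replicate 1 and 1352 (263 CPM) in replicate 2, a large part of the sum. Whether the reads of this list came from epithelial cells was not tested. The Mir183 cluster, expressed in sensory epithelia, supplied 3 of the 5, with Mir182 at 833 and 267 counts, Mir96 at 196 and 83, and Mir183 at 384 and 224. Mir34c had 467 and 403 counts. The fifth gene past 2-fold, Mir215, had 9 and 5 counts, with an interval that includes no difference; it was chosen once its values were known.

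The genes whose ratio came nearest to the 7, among 251 others with a mean of at least 10 CPM, were Mir140, Mir182, Mir96, Mir708 and Mir183. Likeness here is closeness to the 7 genes' median log2 ratio of 4.13, over only 2 libraries. Mir140, a cartilage miRNA gene, came nearest with 6539 CPM in replicate 1 and 966 CPM in replicate 2, a log2 ratio of 2.63 that differed from the median of the 7 by -1.51. The other cartilage-linked gene, Mir455, had 1377 and 986 CPM and a log2 ratio of 0.35.

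Genes of other cell types are given beside the 7. Over all 373 tested genes 6.43% were past 2-fold in favour of replicate 1 and 1.88% in favour of replicate 2, so a count of 0 in lists this short is near the background and is no result about them. Of the 9 striated muscle genes, led by Mir206, Mir133b and Mir499, 0 were past 2-fold. For all 9 the value in replicate 1 was the lower one (median log2 ratio -0.35). For those of the 9 with the fewest counts, the interval included no difference. Over all 373 tested genes 184 had a log2 ratio above 0, so a lower value in replicate 1 was not particular to muscle genes. The summed level of the 9 muscle genes was 81343 CPM in replicate 1 and 89366 CPM in replicate 2, of which Mir206 held 79447 and 87198 CPM. Reads that mapped to more than 1 place are missing from this sum, and their part for each muscle gene was not tested. The fibroblast and smooth muscle list (Mir143, Mir21a, Mir214 and 3 others) summed to 45400 and 41891 CPM, with a median of 0.17 and 0 of 6 past 2-fold. The endothelial Mir126a had 40785 and 36558 CPM and a log2 ratio of 0.026.

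The white blood cell genes (Mir223, Mir146, Mir155 and 1 more listed) summed to 646 CPM in replicate 1 and 458 CPM in replicate 2, with a median of 0.15. The red blood cell genes, Mir451a and Mir144, summed to 416 and 299 CPM, with a median of 0.12. The neural list, led by Mir128-1, Mir128-2 and Mir338, summed to 1342 and 1577 CPM, with a median of -0.26. Of its 10 listed genes, 4 were at 0 in both libraries. Mir128-1 (557 and 701 CPM) and Mir128-2 (399 and 512 CPM) held most of the sum. Whether these reads came from neural cells was not tested. As in the lists above, 0 of the tested genes of these 3 lists were past 2-fold, again near the background. The part of other cell types in the difference of the 7 genes was not tested.

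**Figure D5:**
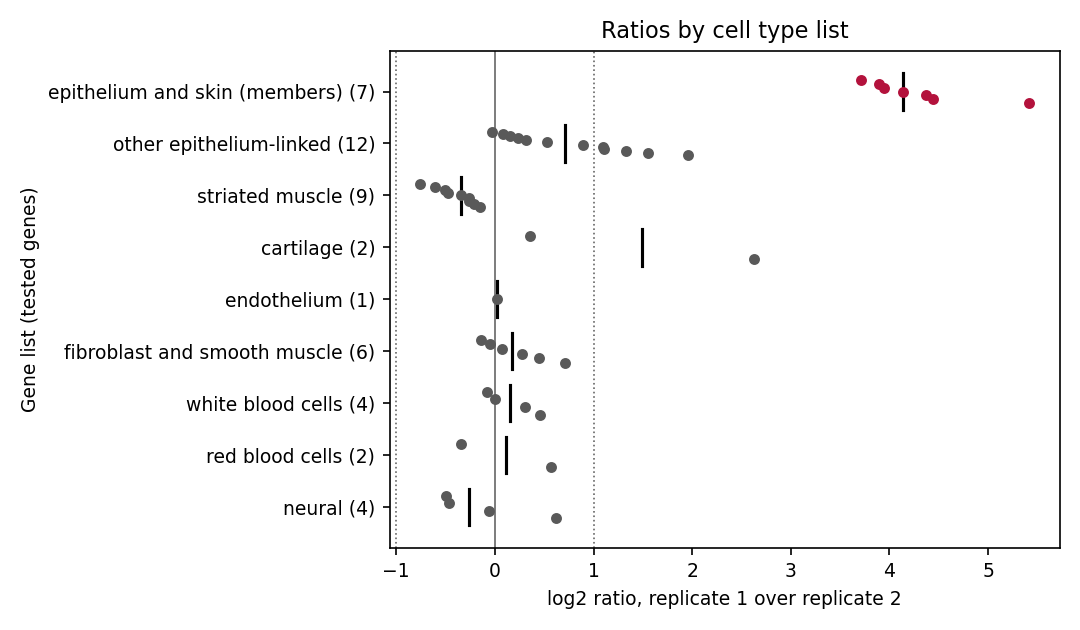
log2 ratio of replicate 1 over replicate 2 for each tested gene of 9 cell type lists, with the number of tested genes in brackets; black lines mark medians and dotted lines mark 2-fold. The 7 epithelial genes (dark red, top) lie from 3.71 to 5.42, the other epithelium-linked genes from -0.032 to 1.96, and the 9 muscle genes below 0.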

How the data were processed

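Small RNA from total RNA of 2 newborn skeletal muscles was counted by the authors over miRNA genes on mm10 with annotation M4, per the description deposited with each library. Which aligner and counter were used is not given in the sources used here. The deposited values are whole-number read counts in 3 columns without a header. The first equals the sum of the other 2 in every gene. The second was read, from this layout, as own-strand counts and used throughout. The 4 leading lines stayed out of library sizes; they held 30.2% and 29.9% multimapping, 9.66% and 10.1% unmapped and 7.56% and 8.44% reads outside a gene on its strand.

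Libraries were scaled by TMM (edgeR 4.0.16, R 4.3.3; factors 1.05 and 0.955), and ratios were taken after adding 0.5 to both counts. Total-count scaling shifts every log2 ratio by 0.13. Genes with at least 10 counts in total were tested, and a gene was called at 2-fold, with no p-value. Intervals are exact at 95% (scipy 1.17.1), and the interval of a ratio does not use the added 0.5. Ratios within clusters used Fisher's exact test with Benjamini-Hochberg adjustment over 6 pairs and a threshold of 0.05. Procedures were tested on simulated counts that held counting error only, without any spread between pups or preparations. Where nothing separates pups from preparation, p-values measure only the spread of reads. Named were the 7 genes, the 3 most abundant of each list and the 5 others with the highest ratio at a mean of at least 10 CPM. Mir215, Mir293, Mir294, Mir449b and Mir449c were named outside this rule, after their values were seen. The 7 genes and the lists were chosen with earlier results of these data known. Alternatives were both strands, DESeq2 1.42.0 size factors, other scaling, filters, denominators and pseudocounts, and each library alone.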

Additional observations from a re-analysis of the deposited data

Results flagged for a closer look

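Reads on the strand opposite Mir203 were not used in the comparisons, and they lay above the 3 counts that a count of 0 allows. There were 25 in replicate 1 and 9 in replicate 2, which is 0.153% (95% interval 0.0988 to 0.225) and 0.9504% (0.435 to 1.80) of all reads at the locus. The other 6 genes had none, over 5241 own-strand reads in both libraries together. RefSeq places a second miRNA on this opposite strand (chromosome 12, minus strand, 112130887 to 112130908 and 112130927 to 112130946), whose 2 mature arms are shown because they lie across from the arms of Mir203.
miR-203b-3p: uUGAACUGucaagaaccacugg
miR-203b-5p: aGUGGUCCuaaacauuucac
Their seeds, in capitals, occur in no other mature miRNA of the table. The opposite-strand reads were higher in replicate 1 by a log2 ratio of 1.74 (0.65 to 3.08), an interval that lies below that of Mir203 on its own strand (4.44, 4.35 to 4.54). The difference was not tested and the source of these reads was not tested.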

How the results depend on the processing

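Under the alternatives run, all 7 genes stayed at least 2-fold higher in replicate 1, except that a minimum of 50 counts removed Mir200a from the tested genes and left 6. The log2 ratio of the 7 genes' summed counts was 4.50, and 4.63 with total own-strand counts; single genes ran from 3.04 (Mir200a with 5 added to each count) to 5.55 (Mir205 with total counts). The background moved more. From 24 genes at least 2-fold higher in replicate 1 and 7 in replicate 2, counts were 98 and 117 without the filter, 12 and 1 with at least 50 counts, and 10 and 0 at 4-fold. The other alternatives for shares, levels and within-cluster ratios stayed within 1 SD or on the same side of the threshold; either of 2 libraries necessarily falls within 1 SD of their mean, so that shows no stability. No paired analysis was possible because the labels hold a single group. Depth limits ratios that involve Mir200a and Mir141, with 2 and 9 counts in replicate 2.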
